A study of Mus musculus with 4 samples.

Results

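The cytosolic ribosomal proteins were measured in MDA-MB231 xenografts, tumours that this human breast carcinoma line forms in immunodeficient mice. The probes of the family were taken by gene symbol from the platform annotation (Rpl or Rps followed by a subunit number, with the acidic stalk proteins Rplp0 to Rplp2 and Rpsa). Of 45220 features, 137 carried such a symbol, and after 10 copies of 1 Rplp0 probe were combined by their median there were 128 probes of 72 genes among 43154 probes tested. The large subunit had 79 probes of 46 genes and the small subunit 49 probes of 26 genes. Of the 4 xenograft samples, 2 were treated with sunitinib at 40 mg/kg/day, an inhibitor of VEGF, PDGF and related receptor kinases, and 2 received vehicle. The series title speaks of withdrawal of the drug, but the labels do not give the time since the last dose. Nor do the labels say which immunodeficient strain was used or whether replicates were separate animals. Total RNA (0.5 µg, RIN 9 in every sample) was hybridised in 1 colour to a mouse array. The probes read host cells of the tumour and any human transcript that binds them, and for genes as conserved as these the human share cannot be told apart. In such bulk tissue, fewer cells and less RNA per cell cannot be told apart either.

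Ribosomal proteins fold around the ribosomal RNAs and form, with them, the large subunit that joins amino acids and the small subunit that reads the messenger RNA. Their messenger RNAs are among the most abundant in any growing cell. Most begin with a tract of pyrimidines through which the mTOR kinase pathway controls their translation rather than their amount. Receptor tyrosine kinases such as those inhibited by sunitinib signal to that pathway.

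Start sites are shown for members described below because the tract is a feature of the family that the choice by symbol did not use. In the sequences, which are from RefSeq (GRCm38.p6) and run from 10 bases before the annotated start to 20 after it, capitals mark an unbroken run of at least 6 C or T bases that reaches to within 5 bases of the start.
Rps24, first start, chr14:24490668-24490697, plus strand: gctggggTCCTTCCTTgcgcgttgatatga
Rps24, other start, chr14:24490743-24490772, plus strand: cgccgtagccatcatggtgagtctcctcgg
Rps6, chr4:86857348-86857377, minus strand: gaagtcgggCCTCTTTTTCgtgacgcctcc
Rpl27, chr11:101442235-101442264, plus strand: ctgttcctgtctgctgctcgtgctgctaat
Rplp0, chr5:115559457-115559486, plus strand: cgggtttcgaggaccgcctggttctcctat
The run was present at 1 of the 2 Rps24 starts and at the Rps6 start, and not at the other Rps24 start or those of Rpl27 and Rplp0. Of the 72 genes, 58 had a start sequence in the RefSeq table and 30 of these (51.7%) held the run, against 23% of 27025 genes of the table. Only the strand of the gene was read, and a run in this window is a match of letters, not a measured start.

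The family was bright, and a part of it could not be measured for that reason. A log2 value no more than 0.05 below 16, where the brightest features of all arrays gather, was counted as saturated. It was held on at least 1 array by 36 probes of 30 genes, and on all 4 arrays by 26 probes of 22 genes. For 16 genes every probe was of this kind, among them the stalk proteins Rplp1 and Rplp2 and the small subunit proteins Rps14, Rps16 and Rps7. No fold is given for them. On 10 probes the limit was reached on some arrays only. In each of these at least 1 group averaged 16, with its 2 arrays equally far above and below it. A value a little under the limit in such a group cannot be taken as measured. Rpl23a, at the tunnel exit, read 15.80 and 14.94 with sunitinib and 15.88 and 16.12 with vehicle on 1 probe, and Rpl38 read 15.71 and 15.86 against 16.11 and 15.89. The brightest probe under the limit was one of Rpl13, at 15.68 and 15.72 with sunitinib and 15.86 and 15.88 with vehicle. Among the saturated probes the lowest peak value was 16, shared by many of them. Rpl13a, a common reference gene, was one of these, at 16 and 16 with sunitinib and 16 and 15.99 with vehicle. Of the other 92 probes, from 56 genes, 59 were bright (a mean of 11 or more on the log2 scale, 41 genes) and 33 were dimmer, most of these near the floor of the array.

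**Figure D1:**
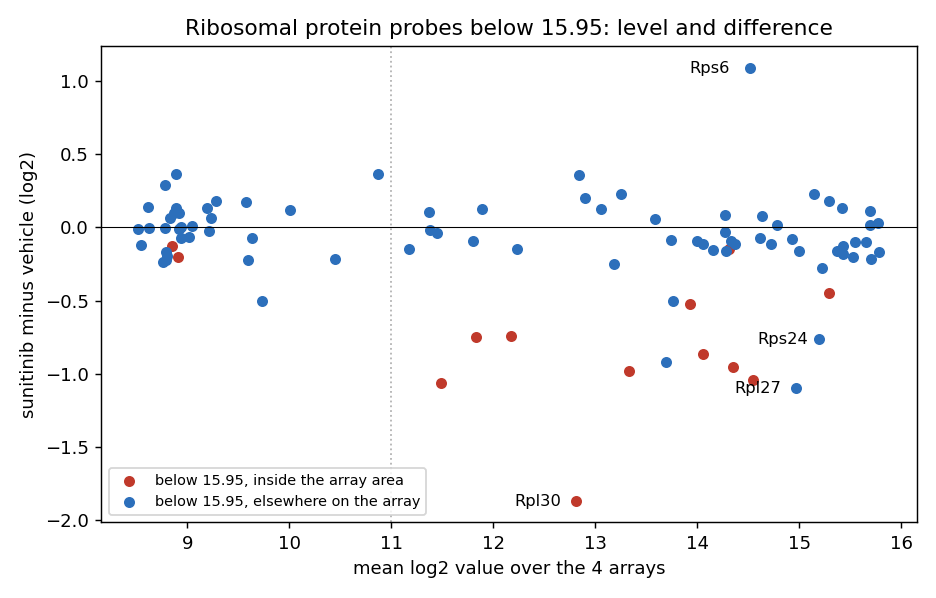
Each point is a ribosomal protein probe that was not saturated on any of the 4 arrays, with its mean log2 value on the x axis and the log2 difference of sunitinib minus vehicle on the y axis. The dotted line marks a mean of 11, and red points lie in the area of the array described in the text. Most points lie close to 0, a group of red points lies near -1, and Rps6 lies highest at 1.09.

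The comparison asked whether these genes stood at another level after sunitinib than after vehicle. In limma, with adjustment over all probes, 0 of the 128 members passed, where 1 of 43154 probes did (0.00232%, a probe of Xist). Of the 92 unsaturated members, 15 were lower with sunitinib at an unadjusted p under 0.05 and 4 were higher, against 5.72% and 7.74% of all 42967 unsaturated probes. The 15 became 4 with the slide as a block, 4 without either vehicle array and 8 without probes in the area described below. Both sunitinib arrays lay below both vehicle arrays for 37 probes and above them for 17, against 21.7% and 25.5% of those probes. A difference of -0.5 or below was held by 14 and one of 0.5 or above by 1, against 2.04% and 1.35%. The median log2 difference of the 92 was -0.09, and 0.005 over all unsaturated probes. Among the 59 bright members it was -0.12, with 42 lower and 17 higher. Of these 59, 13 lay at -0.5 or below and 1 at 0.5 or above, against 9.05% and 7.03% of the 3770 bright probes of the array, whose median was 0.03. The groups did not overlap for 29 lower and 8 higher members of the 59, against 22.3% and 30% of those bright probes.

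The probes that departed most did not do so evenly over the array. With features laid out by number in 85 columns and 532 rows, a layout that is inferred, bright probes of other genes in sunitinib replicate 2 read low in an area on one side of the array. The area was taken as the places where such neighbours (within 5 columns and 20 rows) had a median at least 0.3 below the median of the other 3 arrays. Its places lay within columns 1 to 43 and rows 203 to 524 but did not fill that range. They held 374 bright probes of other genes, whose median log2 difference was -0.49, and 48.9% of which lay at -0.5 or below. Among the 3337 bright probes of other genes elsewhere the median was 0.06 and 4.35% lay at -0.5 or below. The area was defined by the values of these same probes, so this contrast follows in part from the definition. The layout was checked on bright features of sunitinib replicate 2, whose departures correlated across features at 0.53 with those 850 features on (10 rows down in the same column) and at -0.12 with those 42 on. These are descriptions across features that share an array, not replicates.

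**Figure D2:**
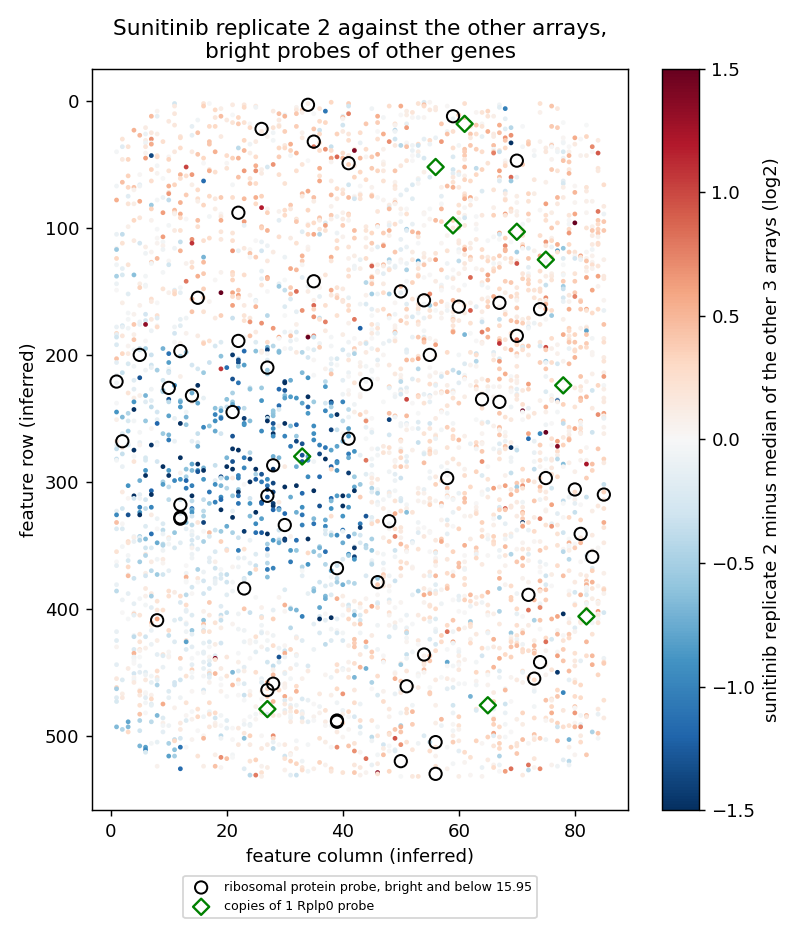
Each small point is a bright probe of another gene at its inferred column and row, coloured by the value in sunitinib replicate 2 minus the median of the other 3 arrays (log2). Circles are the bright ribosomal protein probes and diamonds the 10 copies of 1 Rplp0 probe, and the blue area at the left holds 11 of the circles and 1 diamond.

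Of the 59 bright members, 11 probes of 9 genes lay in that area, all from the large subunit. All 11 were lower with sunitinib, 9 of them at -0.5 or below and 7 at an unadjusted p under 0.05, against 29.1% of bright probes of other genes in the area at that p. The groups did not overlap for 9 lower and 0 higher, against 54.5% and 1.6%. Their median difference was -0.87 (-0.32 on slide 1 and -1.41 on slide 2). Set against the vehicle mean, their median was -0.36 in sunitinib replicate 1 and -1.37 in sunitinib replicate 2. The other 48 bright members had a median of -0.10, with 31 lower and 17 higher. Of these, 5 were lower and 1 higher at an unadjusted p under 0.05 (6.5% and 17.4% of bright probes of other genes outside the area), and 4 lay at -0.5 or below and 1 at 0.5 or above (4.35% and 7.85%). For these, 20 probes had both sunitinib arrays below both vehicle arrays and 8 had them above, against 18.2% and 33.5% of bright probes of other genes elsewhere on the array.

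Rplp0, the protein at the base of the acidic stalk and a common reference gene, has 10 features with the same gene and accession, taken here as copies of 1 probe. At 9 places the copies averaged higher with sunitinib, by 0.165 to 0.34, and at 1 of these, in row 479, the groups overlapped. At row 280 and column 33, inside the area, it read 15.19 and 13.62 with sunitinib and 15.22 and 15.39 with vehicle, a difference of -0.90. In sunitinib replicate 2 the other 9 copies read 15.20 to 15.58. The copy in the area lay at -1.60 from the median of the other 3 arrays, and the 9 copies elsewhere at 0.20 to 0.44. Combined by the median, Rplp0 read 15.14 and 15.37 in sunitinib samples, against 14.99 and 15.07 in vehicle samples (difference 0.23, SE 0.11, limma adjusted p = 0.417). Another Rplp0 probe was at 16 on all arrays. A further one read 15.53 and 15.82 with sunitinib and 16.14 and 15.86 with vehicle, the other way round from the copies. It was saturated in vehicle replicate 1, so no fold is given.

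**Figure D3:**
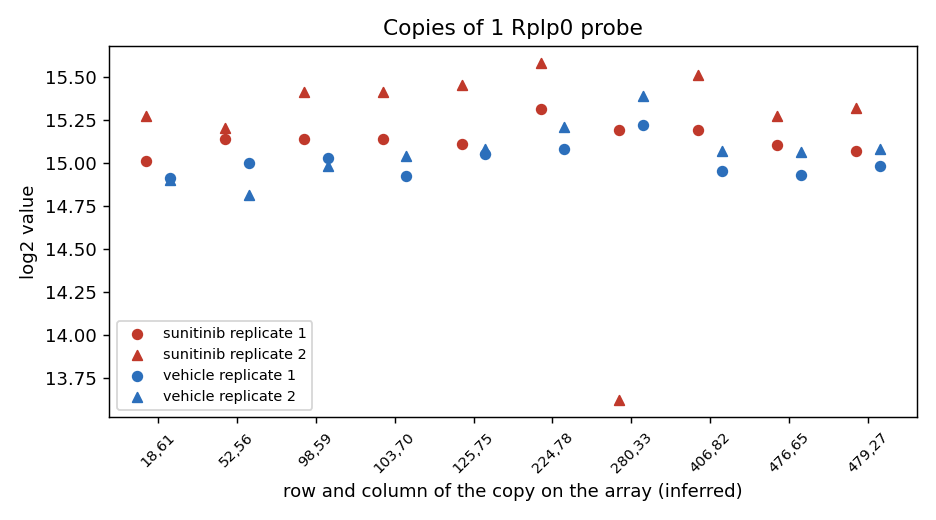
Log2 values of 10 copies of 1 Rplp0 probe, ordered by row, with the sunitinib arrays in red and the vehicle arrays in blue. The copy at row 280 and column 33 reads 13.62 in sunitinib replicate 2, below the other values plotted.

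Among large subunit proteins in the area, Rpl30, a small protein that also binds its own transcript in yeast (mouse gene at chr15:34440505-34443276), had the largest difference. It read 12.40 and 11.35 in sunitinib samples, against 13.75 and 13.73 in vehicle samples (difference -1.87, SE 0.34, limma adjusted p = 0.352). Both sunitinib arrays were low, and the difference was -1.34 without sunitinib replicate 2. The neighbours of this probe differed by -0.36 at the median, and with each array's local median removed Rpl30 differed by -1.51 (SE 0.23, limma adjusted p = 0.293). A dim second probe read 9.28 and 9.23 with sunitinib and 9.12 and 9.13 with vehicle, near the floor.

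Other large subunit proteins in the area had most of their difference in sunitinib replicate 2. Rpl36 read 13.44 and 12.23 in sunitinib samples, against 13.72 and 13.91 in vehicle samples (difference -0.98, SE 0.40), while its neighbours differed by -0.66. Rpl10, which helps the subunits to join (gene on the X chromosome), read 14.13 and 13.12 against 14.45 and 14.53 (difference -0.87, SE 0.33), with neighbours at -0.64. For Rpl4, which lines the exit tunnel of the nascent chain, the values were 12.22 and 11.39 with sunitinib and 12.54 and 12.55 with vehicle (difference -0.74, SE 0.28), with neighbours at -0.68. The differences of these 3 shrank to -0.28, -0.19 and -0.06 once the local median was removed. In each of them sunitinib replicate 2 was the lowest array by a wide margin.

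Rpl10a read 11.76 and 11.15 in sunitinib samples, against 12.11 and 12.30 in vehicle samples (difference -0.75, SE 0.22, neighbours at -0.41). A Rpl7 probe read 14.49 and 13.57 against 14.81 and 15.33 (difference -1.04, SE 0.35), and one of Rpl29, known in its secreted form for binding heparin, 11.41 and 10.51 against 11.70 and 12.34 (difference -1.06, SE 0.36). Another Rpl29 probe in the area differed by -0.15, and a dim one outside it read 9.60 and 9.36 against 9.85 and 10.11 (difference -0.50, SE 0.14). Rpl39, which lies in the exit tunnel, read 14.47 and 13.28 with sunitinib and 14.78 and 14.87 with vehicle (difference -0.95, SE 0.39, neighbours at -0.18). Just outside the area, Rpl35a had the neighbouring feature and the same pattern, with 13.76 and 12.70 against 14.02 and 14.28 (difference -0.92, SE 0.36). The neighbours of Rpl35a in sunitinib replicate 2 were 0.28 below the other arrays, just short of the 0.3 that defined the area, and those of Rpl39 were at -0.325, just past it. None of these probes passed in limma (adjusted p = 0.352 to 0.382, and 0.559 for the Rpl29 probe at -0.15).

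**Figure D4:**
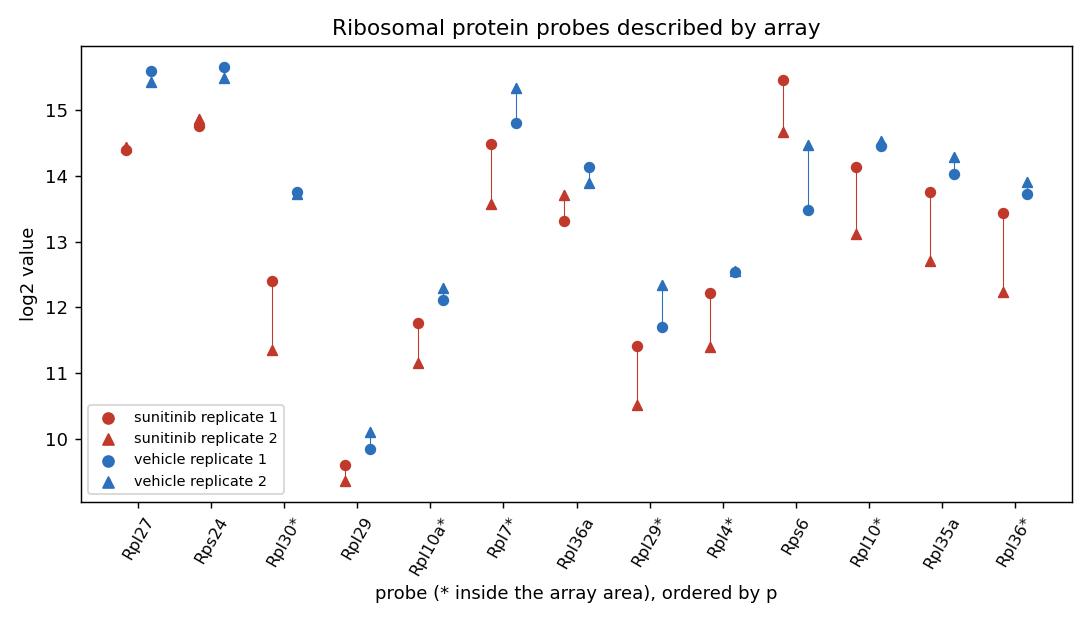
Log2 value on each array for the 13 ribosomal protein probes chosen by size and p, ordered by p, with sunitinib arrays (red) left of vehicle arrays (blue), circles for replicate 1 and triangles for replicate 2. In the starred probes, inside the area, the red triangle is the lowest value, and in Rpl27 and Rps24 both red points lie together below both blue ones.

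Outside the area, Rpl27 and Rps24 stood lowest with both sunitinib arrays close together. Rpl27, a large subunit protein (chr11:101442245-101445596), read 14.39 and 14.44 in sunitinib samples, against 15.60 and 15.42 in vehicle samples (difference -1.10, SE 0.10). Rps24, a small subunit protein mutated in some human families with Diamond-Blackfan anaemia (chr14:24490678-24496960), read 14.75 and 14.87 against 15.66 and 15.48 (difference -0.76, SE 0.10). Their limma adjusted p-values were 0.335 and 0.352, and leaving out any 1 array gave differences of -1.01 to -1.19 for Rpl27 and of -0.67 to -0.85 for Rps24. These are single probes, at rows 197 and 200 of the array, where bright neighbours differed by -0.32 and -0.26. There the neighbours were lower in sunitinib replicate 1 too, at -0.21 and -0.13 from their 4-array mean, and higher in vehicle replicate 1, at 0.18 for both. With the local median removed the differences were -0.77 for Rpl27 (SE 0.10) and -0.53 for Rps24 (SE 0.10), each with a limma adjusted p of 0.293. The 2 other Rps24 probes lay near the floor, at 8.74 to 9.34 on all arrays, and differed by 0.10 and 0.07.

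Rps6, the small subunit protein phosphorylated by S6 kinases (chr4:86854099-86857367), was the 1 unsaturated member above 0.5. It read 15.46 and 14.67 in sunitinib samples, against 13.48 and 14.47 in vehicle samples (difference 1.09, SE 0.41, limma adjusted p = 0.371). The replicates were far apart within both groups, and the difference was 1.98 on slide 1 and 0.20 on slide 2. Its probe was in row 3, where bright neighbours stood 0.65 below their mean in vehicle replicate 1 and 0.48 above it in sunitinib replicate 1. Removing the local median left a difference of 0.44 (SE 0.22). Rps10, also a small subunit protein, read 12.99 and 13.04 with sunitinib and 12.35 and 12.96 with vehicle (difference 0.36, SE 0.21), with neighbours at 0.46. With the local median removed it stood at -0.14 (SE 0.13).

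Probes of the same gene were compared directly, by testing the difference between the log2 differences of the brightest unsaturated probe and of each other one. Over all genes 2 of 12432 pairs passed in limma (0.0161%), both of Xist, and 0 of the 36 pairs from 27 ribosomal protein genes did. At an unadjusted p under 0.05, 12 of the 36 pairs differed, against 14.9% of all pairs, and 7 had opposite signs by at least 0.1 on each side, against 16.1%. Most of all pairs held a dim probe. With both probes bright, 5 of 18 member pairs differed at that p, against 98 of 404 pairs of all genes. Opposite signs were held by 3 of these 18 and by 74 of these 404. Of the 18 bright member pairs, 5 had 1 probe in the area and the other outside it, with a median absolute disagreement of 0.65. The 11 bright pairs with neither probe in it had a median of 0.07. For bright pairs of all genes these values were 0.65 (74 pairs) and 0.22 (327 pairs).

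Rpl7 had bright probes on both sides of the edge of the area. Its probes in the area differed by -1.04 and -0.45, and the one outside it read 12.97 and 13.02 in sunitinib samples, against 12.82 and 12.77 in vehicle samples (difference 0.20, SE 0.08). Rpl36 differed by -0.98 in the area and by 0.23 outside it, where the probe read 13.51 and 13.22 with sunitinib and 12.91 and 13.36 with vehicle (limma adjusted p = 0.295 for the pair). The neighbours of that outside probe differed by 0.485, and with the local median removed the Rpl36 probes stood at -0.28 in the area and -0.21 outside it. Rpl10 was at -0.87 in the area and -0.04 outside, Rpl24 at -0.52 and 0.02, and the probes of Rpl35a at -0.92, 0.11 and 0.29. Of the 4 Rpl29 probes the extremes were -1.06 and -0.10. With the local median removed, Rpl7 stood at -0.495 and -0.17 in the area and 0.27 outside it. Rpl10 then stood at -0.19 in the area and -0.001 outside, and Rpl24 at -0.255 and 0.14. The bright Rpl35a probes stood at -0.73 and 0.06, and the bright Rpl29 probes at -0.62, 0.09 and -0.29. The disagreement thus narrowed in some of these genes and remained in others. Among other genes with their bright probes outside the area, the values stood further apart in Rpl36a (-0.17 and -0.51), Rps3 (-0.19 and 0.06) and Rps19 (-0.08 and 0.13). They lay closer in Rpl13 (-0.17 and -0.16), Rpl34 (-0.10 and -0.12), Rpl6 (-0.12 and -0.15) and Rps21 (-0.10, -0.12 and -0.15).

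**Figure D5:**
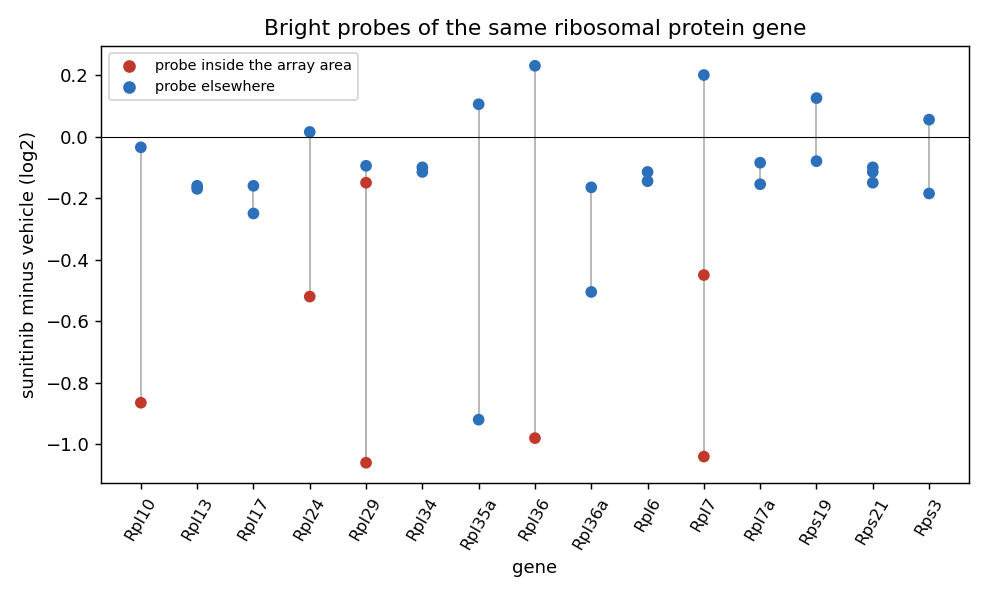
Log2 difference of sunitinib minus vehicle for each bright unsaturated probe of the 15 ribosomal protein genes with more than 1, joined by a line per gene, with probes inside the area in red. The longest lines belong to Rpl7, Rpl36, Rpl35a, Rpl29 and Rpl10, and all of these but Rpl35a have a red point at the lower end.

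Apart from Rpl27, Rps24, Rpl35a, Rpl36a and Rps6, the bright members outside the area lay between -0.5 and 0.5. Rpl3, which builds the peptidyl transferase centre, read 14.32 and 14.30 with sunitinib and 14.22 and 14.23 with vehicle (difference 0.09, SE 0.08). Rpl41, the smallest of the family, read 15.58 and 15.60 against 15.78 and 15.83 (difference -0.22, SE 0.08), and Rps13 15.36 and 15.49 against 15.58 and 15.68 (difference -0.21, SE 0.09). Rpsa, which also serves as a laminin receptor, read 13.10 and 13.13 with sunitinib and 12.91 and 13.07 with vehicle (difference 0.13, SE 0.09). Its neighbours differed by 0.495, and with the local median removed Rpsa stood at -0.31 (SE 0.13). A dim second Rpsa probe read 8.69 and 8.67 against 8.90 and 8.91 (difference -0.23, SE 0.08). It was lower with no overlap, as were 21.7% of all unsaturated probes. The groups did not overlap for the 4 bright probes, higher in Rpl3 and Rpsa and lower in Rpl41 and Rps13. Among bright probes of other genes outside the area, 33.5% lay higher without overlap and 18.2% lower. The differences of the 4 were small and did not pass (limma adjusted p = 0.365 to 0.628). For the large subunit the median outside the area was -0.11 over 30 probes, and for the small subunit -0.04 over 18 probes.

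With the local median removed from every bright probe, 44 of 58 bright members were lower and 14 higher, with a median of -0.16. This included 11 in the area (median -0.27) and 47 outside it (median -0.13). The combined Rplp0 probe has no single place and was left out of the 58. The share lower among other bright probes is not given here. By a simpler measure, the difference less the median difference of the neighbours, the median was -0.15 for bright members. It was -0.005 for all bright unsaturated probes, a value that the removal itself draws towards 0. Of the 58, 6 lay at -0.5 or below (Rpl30, Rpl27, Rpl39, Rpl35a, Rpl29 and Rps24), where 5.05% of 3901 bright probes did, and 0 passed in limma, where 10 were lower and 0 higher at an unadjusted p under 0.05 (background 7.02% and 8.05%). The 3901 include saturated probes, which the 58 do not, so these shares are not over a like set. This removal was chosen after the data were seen.

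Some members are paralogues known for a restricted pattern. Rpl3l, the striated muscle form of Rpl3, read 9.02 and 8.54 with sunitinib and 8.76 and 8.81 with vehicle and lay near the floor. Of the muscle markers, Ckm and Mb were at 8.23 to 9.14 on all arrays, Acta1 at 10.90 to 11.98 and Myh4 at up to 10.13. Rpl39l, known from the testis, read 9.41 and 9.56 with sunitinib and 10.12 and 9.29 with vehicle on its brighter probe, where the groups overlapped. Its other probe read 8.59 and 8.69 against 8.96 and 8.80 (difference -0.24, SE 0.10). That probe was lower with no overlap, as were 21.7% of all unsaturated probes. Rps27l, a paralogue of Rps27 induced by p53, was bright, with 13.91 and 13.99 against 14.03 and 14.06 (difference -0.10, SE 0.08). None of the differences passed.

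The 4 genes on the X chromosome were Rpl10, Rpl36a, Rpl39 and Rps4x. Xist, which marks cells with an inactive X chromosome, stood at 8.97 and 8.96 in the sunitinib samples and at 12.19 and 12.26 in the vehicle samples (1 probe). A second Xist probe read 8.66 and 8.71 against 10.63 and 10.96, and its other probes lay at 8.54 to 9.41. The Y-linked Eif2s3y stood at 10.21 and 10.02 against 8.46 and 8.58, so that both genes parted with treatment. Whether the sex of the host mice differed between the groups was not tested, and it cannot be told apart from treatment. Rps4x, which escapes X inactivation in humans but not in mice, averaged 15.37 with sunitinib (15.23 on the lower array), against 16.08 and 15.92 with vehicle. It was saturated in vehicle replicate 1, and vehicle replicate 2 lay as far below 16 as that array lay above it, so no fold is given. Rpl36a read 13.31 and 13.71 against 14.14 and 13.89 on 1 probe (difference -0.51, SE 0.17) and 14.31 and 14.09 against 14.43 and 14.30 on another (difference -0.17, SE 0.11), while its remaining probe was at 16 throughout. The part of Xist and Eif2s3y in these values was not tested.

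Genes that make and use ribosomes were described from lists, each gene by its brightest unsaturated probe, which for some genes lay near the floor. None of their genes passed in limma. Of 25 ribosome biogenesis genes, 2 were lower and 7 higher at an unadjusted p under 0.05 (median 0.04). The 2 lower genes, Rrn3 and Nob1, both lay in the area, with neighbours at -0.50 and -0.42. The shares at that p were 5.72% lower and 7.74% higher over all unsaturated probes, and 6.5% and 17.4% over bright probes of other genes outside the area, and the list counts that follow are to be read against these. Fibrillarin, Fbl, which methylates ribosomal RNA, read 14.86 and 14.73 in sunitinib samples, against 14.43 and 14.35 in vehicle samples (difference 0.41, SE 0.09), with neighbours at 0.10. Utp20, Wdr12 and Dkc1 differed by 0.50, 0.51 and 0.59, with neighbours at 0.025, -0.02 and 0.24. Of 28 translation factors 2 were lower and 6 higher at that p (median 0.02). The elongation factor Eef1a1 had 13.57 and 13.81 against 14.88 and 14.42 (difference -0.96, SE 0.18), with neighbours at -0.21, and Eif4b, Eif3k and Eif1ax differed by -0.39, 0.31 and 0.65, with neighbours at -0.21, 0.04 and 0.34.

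Of 17 genes of the mTOR and S6 kinase pathway, 1 was lower and 5 higher at that p (median 0.005, background 5.72% and 7.74%). Rps6kb2, an S6 kinase, differed by 0.72 (SE 0.12, neighbours at 0.39) and Rps6ka3 by 0.48 (SE 0.09, neighbours at 0.03). Larp1, which binds the pyrimidine tract, differed by 0.45 (SE 0.13, neighbours at 0.215), and Larp4, in the area, by -0.70 (SE 0.18, neighbours at -0.445). The 75 mitochondrial ribosomal proteins, which form a separate ribosome, had a median of 0, with 5 lower and 4 higher at that p, near the background of 5.72% and 7.74%. Their median was -0.48 for the 10 genes whose probe lay in the area and 0.04 for the rest. Mrpl18 differed by -0.44 (neighbours at -0.39), Mrps9 by 0.39 (neighbours at 0.185), Mrpl14, in the area, by -0.85 (neighbours at -0.59), and Mrps10 by -0.58 (neighbours at -0.225).

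Markers of host cells were read beside these values. The mean of 4 fat cell markers was 11.65 and 11.56 on the sunitinib arrays, against 10.40 and 9.93 on the vehicle arrays, and 3 of the 4 were higher without overlap, as were 25.5% of all unsaturated probes (Adipoq, a fat cell hormone, 11.41 and 11.23 against 9.28 and 8.70). The remaining fat cell marker, Fabp4, lay in the area and differed by 0.17, with neighbours at -0.51. Of 4 measured fibroblast markers 2 lay lower without overlap, Pdgfra and Lum, as did 21.7% of all unsaturated probes, and the mean was 11.11 and 11.01 against 11.87 and 11.22. That mean includes Col1a2, whose probe lay near the floor at 8.64 to 8.72 on all arrays. The mean of 4 endothelial markers was 10.90 and 10.47 against 10.29 and 10.60, and that of 4 proliferation markers 10.42 and 10.45 against 10.34 and 10.19. Of the endothelial markers, Cdh5 differed by 0.735, with neighbours at 0.72, and Tek, Pecam1 and Kdr by 0.18, 0.11 and -0.06. The 2 measured macrophage markers averaged 11.60 and 12.07 against 12.33 and 11.77, and 6 skeletal muscle markers 9.73 and 9.24 against 9.83 and 8.62. The macrophage markers went opposite ways: Adgre1 differed by 0.28, and Cd163, in the area, by -0.715, with neighbours at -0.59. For 4 germ cell markers the mean was 9.77 and 10.04 against 9.87 and 9.77, and 1 of them, Prm2, lay in the area (neighbours at -0.68). The part of these cells in the ribosomal protein values was not tested.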

How the data were processed

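RNA of 4 xenograft samples was measured on 1-colour Agilent mouse arrays, 2 per group. The authors deposited 1 log2 value per feature and array, a scale taken from the range of the values. The submitters' processing notes list limma. Sources used here do not name a background correction or normalization. Quartiles of the arrays were within 0.02 of each other, and the values were used as deposited. Features were named through the platform annotation (33653 with 1 gene, 56 with several, 11511 not listed), and those sharing gene and accession in 8 or more copies were combined by their median (217 probes). All 72 member genes matched RefSeq (GRCm38.p6), the source of loci and starts.

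Sunitinib was compared with vehicle by lmFit and eBayes (limma 3.58.1, R 4.3.3) over 43154 probes, with Benjamini-Hochberg adjustment and a threshold of 0.05. The fits were run on simulated data, where only the mean size of added differences was checked. Noise there was independent between features, without the low area, the saturation or the slides of these arrays. The number of arrays limits the precision, and as the labels do not say that replicates were separate animals, p-values cover only the spread of these samples, and that spread may be technical. No columns were left unused. Replicate numbers share a slide by the array titles, and deviations from group means correlated at -0.225 on both slides. Sunitinib arrays are the second and vehicle arrays the first of their slide, so that place on the slide and treatment cannot be told apart. The alternatives were the slide as a block, quantile normalization, median centring, a filter on dim probes, a trended robust prior, a floor, single spots, position trends, other saturation limits, gene summaries and leaving out each array.

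Array values are given for member probes that passed, for up to 12 of smallest p in each direction with a difference of at least 0.5 and the same sign on both slides, for pairs of smallest p and for Rpsa, Rplp0 to Rplp2, Rpl3, Rpl3l, Rpl10l, Rpl39l, Rps4x, Rps27l and Rps6. Other lists give up to 4 genes of smallest p; Acta1, Myh4, Ckm and Mb were also chosen after their values were seen. Members named outside this rule (Rpl39, Rpl41, Rps13, Rps10, Rpl13, Rpl13a, Rpl23a, Rpl38, Rpl34, Rpl6, Rps3, Rps19, Rps14, Rps16 and Rps7) were chosen after their values were seen. The members, the lists and the position trend were chosen with earlier results of these data known. Rpl10l is not analysed here.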

Additional observations from a re-analysis of the deposited data

How the results depend on the processing

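In limma 0 ribosomal protein probes passed under any of the alternatives run, while the count over all probes was 1 as deposited and 0 with the replicate block (slide), 2 with median centring, 6 with a trended, robust prior, 0 with a floor at the 5th percentile, 4 with the position trend removed and 4 with that and the replicate block, 0 with the local median of bright probes removed, 2 without probes inside the area, and 0 to 0 without any 1 array. The median difference of the measurable members was -0.09 as deposited. It was -0.07 with every spot as its own probe, -0.0744 with the position trend removed, with or without the replicate block, -0.07 with the saturation limit lowered to 0.5 below 16, -0.075 with the brightest probe of each gene and -0.10 with the mean of its probes. It was -0.16 with the local median removed (bright probes), -0.04 without probes inside the area, and -0.10 to -0.0475 without 1 array. It was never positive in these settings. Pairs of probes of 1 gene that differed numbered 2 as deposited, and 0 with the replicate block, without dim probes, with the local median removed, without probes inside the area and without any 1 array (0 to 0). Members lower at an unadjusted p under 0.05 numbered 15 as deposited, 4 with the block, 8 without probes inside the area, and 4 to 13 without 1 array. The block and leaving out an array leave 1 residual degree of freedom rather than 2. The causes of these changes were not tested, beyond those fewer degrees of freedom and probes. With 2 arrays a group the precision was low: differences as far from 0 as -1.87 (Rpl30) did not pass after adjustment.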
